A study of Mus musculus with 6 samples.

Results

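The regenerating (Reg) family comprises small secreted proteins with a single C-type lectin domain, most of which are made in the exocrine pancreas or in the gut. Its members here were the 7 genes Reg1, Reg2, Reg3a, Reg3b, Reg3d, Reg3g and Reg4, chosen by name out of the 44713 genes of the count table, and 6 of them were among the 12760 genes with enough reads to be tested. Gene expression was compared in islets of 3 db/db mice, labelled Lepr-/- and diabetic, and of 3 db/m control mice, labelled wild type. The labels give the strain as C57BL/6, whereas the study's methods describe db/db mice on the BKS background with their db/m littermates, all of them male, fed a normal diet and 10 weeks old when the islets were taken. The islets were isolated with collagenase and a Histopaque density gradient, and the libraries were made from total RNA from which ribosomal RNA had been removed.

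In the pancreas, Reg1 (also called lithostathine) and Reg2 are products of acinar cells, the cells that make digestive enzymes, and Reg2 is also known from islets. Reg3b (pancreatitis-associated protein), Reg3a and Reg3g are acute-phase secretory proteins that are induced in inflamed pancreas and gut through cytokines of the IL-6 and IL-22 families and the transcription factor STAT3, and Reg3g kills Gram-positive bacteria. Reg3d is the mouse gene closest to the islet neogenesis-associated protein of the hamster, Reg4 belongs to the intestine, and EXTL3 is the best known receptor for Reg proteins.

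Each library held 15641797 to 20614531 counts. The islet label was checked with marker genes of pancreatic cell types. The 36 acinar genes found in the table took 71.7 to 78.2% of the counts in db/db mice and 54.2 to 69.9% in db/m mice, and the 19 β-cell genes took 0.199 to 0.708% and 0.884 to 4.65%. The libraries therefore carried far more acinar than β-cell RNA in every mouse, and the acinar genes had a median log2 fold change of 0.68 (db/db over db/m) against -2.35 for the β-cell genes. The groups did not overlap in either share, and by edgeR, 2 of the 36 acinar genes were higher and 6 of the 19 β-cell genes lower in db/db islets at an adjusted p under 0.05, where 0.133% of all tested genes were higher and 0.486% lower. By DESeq2, 5 acinar and 14 β-cell genes were called, where 1.16% of all tested genes were called higher and 4.38% lower. In bulk RNA, fewer cells of a type and less RNA per cell cannot be told apart. The study checked by insulin immunofluorescence that its islets were free of acinar cells, and reports that the isolated cells were mostly positive. That check was of protein in cells, whereas the shares given here are of RNA counts. Lepr, the leptin receptor gene, had 4, 10 and 68 counts in db/db mice 1, 2 and 3 and 37, 25 and 8 counts in db/m mice 1, 2 and 3, so the groups overlapped. The db allele changes the splicing of the long receptor form, so that a count over the whole gene does not check the genotype.

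The 6 expressed genes lie side by side on mouse chromosome 6. In the GRCm38 annotation (GENCODE), they occupied 98.2 kb, from 78370657 to 78468872, with no other annotated gene between them, and Reg4 lay apart on chromosome 3 (98222156 to 98236748). Reg3b, Reg3a, Reg2 and Reg1 are on the plus strand and Reg3d and Reg3g on the minus strand, and none of the 7 overlapped another gene. The transcripts of Reg1 and Reg2 were 81.5% identical over 674 aligned bases, those of Reg3a and Reg3b 75.9% over 758 bases, and those of Reg3b and Reg3g 74.7% over 739 bases. No stretch of 50 bases was shared between any 2 members, whereas 3.65% of such stretches of Reg1 and 11.3% of those of Reg2 also occurred in transcripts outside the family. How reads that fit several places were counted is not given in the sources used here.

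The promoters of Reg3b and Reg3g are shown because these 2 genes are close in sequence and stood apart in their levels. They cover the 170 bases before the RefSeq start site in GRCm38.p6, at chr6:78370715-78370884 on the plus strand for Reg3b and at chr6:78468875-78469044 on the minus strand for Reg3g, and are written 5′ to 3′. The GENCODE gene of Reg3b begins further upstream, at 78370657, so the printed Reg3b stretch lies within that gene. Capitals mark matches to the STAT motif TTCNNNGAA and to the TATA box TATAAA on either strand.
Reg3b: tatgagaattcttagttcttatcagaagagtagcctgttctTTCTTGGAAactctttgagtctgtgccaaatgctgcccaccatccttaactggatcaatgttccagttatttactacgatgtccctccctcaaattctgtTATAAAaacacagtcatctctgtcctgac
Reg3g: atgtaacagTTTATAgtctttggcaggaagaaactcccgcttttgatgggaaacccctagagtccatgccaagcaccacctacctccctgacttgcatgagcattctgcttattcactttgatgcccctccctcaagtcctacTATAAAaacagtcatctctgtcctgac

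The printed stretches were 69.0% identical over 168 aligned bases, and the 20 bases before the start site were the same in both. Each held a TATA box just before the start site, 29 to 24 bases upstream in Reg3b and 27 to 22 bases upstream in Reg3g. The STAT motif was found in Reg3b, 129 to 121 bases upstream, and its letters were not in the Reg3g stretch. RefSeq promoter windows were found for 7 of the 7 members, and a search of the 250 bases before each start site found the STAT motif in Reg3b and Reg3d, against 7.02% of 32851 windows over all genes. The windows of Reg1 and Reg2, and most of that of Reg3b, lay within the GENCODE genes, whose starts are further upstream. The TATA box was found in Reg1, Reg2, Reg3b and Reg3g (12.4% of all windows), the C/EBP motif TTGCNNAA in Reg2 and Reg3a (9.56%), the AP-1 motif TGANTCA in Reg1 (6.75%) and the GATA motif AGATAA in Reg4 (9.99%). The E-box CAGCTG, which the acinar factor PTF1 can bind, was found in none of the 7 windows (13.0% of all windows). These matches describe letters and do not show that a factor was bound.

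The family spanned a wide range of levels. Levels are given as TMM CPM, the counts scaled to a common library size (CPM) with edgeR's correction for library composition (TMM), and, to compare genes, were divided by the length of the exons in kb. Per kb of exon, Reg1 was highest in every mouse, at 3209 to 7517 TMM CPM per kb. Reg2 followed at 738 to 2128, Reg3d at 150 to 482, Reg3b at 76.1 to 354, Reg3a at 30.8 to 97.2 and Reg3g at 3.4 to 72.0. The ranges over the 6 mice of Reg1 and Reg2 did not overlap, nor did those of Reg2 and Reg3d, whereas those of Reg3d and Reg3b, of Reg3b and Reg3a, and of Reg3a and Reg3g did. Reg4 had no count in any mouse, and the floor of 3 counts in each library corresponds to 0.146 to 0.192 CPM.

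**Figure D1:**
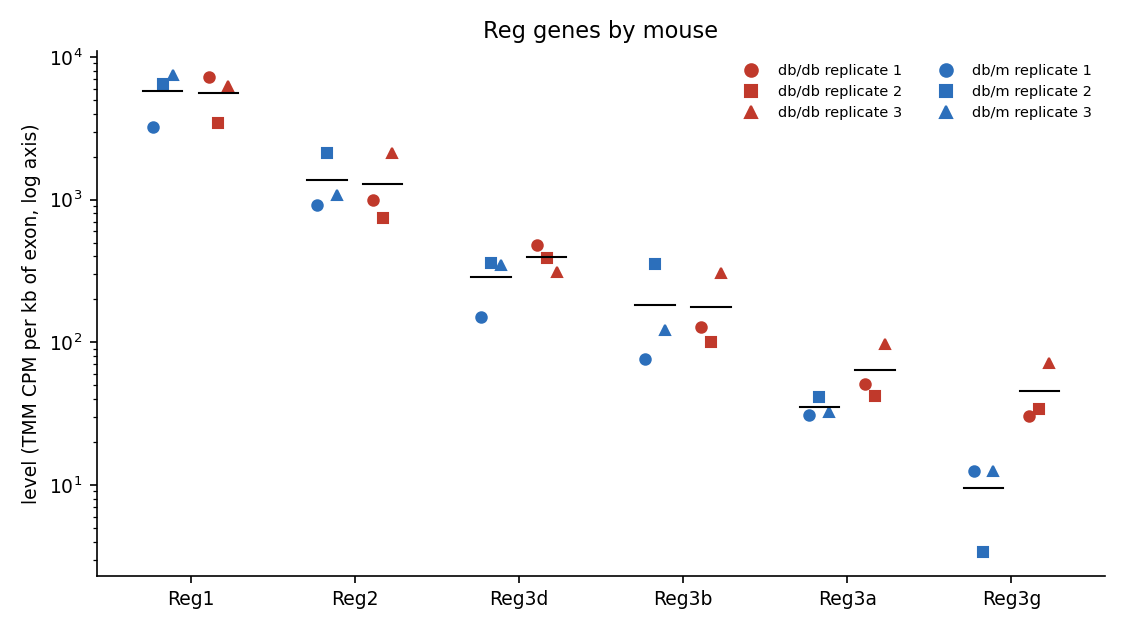
Level of the 6 expressed Reg genes in each mouse, as TMM CPM per kb of exon on a log axis. Each symbol is 1 mouse (db/m in blue, db/db in red) and each bar is the mean of 3 mice. Reg1 lies at 3209 to 7517 and Reg3g at 3.4 to 72.0, and Reg3a and Reg3g are the genes whose db/db symbols all lie above the db/m symbols.

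The db/db islets were then compared with the db/m islets for each gene. None of the 6 tested genes passed an adjusted p of 0.05 by edgeR's quasi-likelihood test, at which 79 of 12760 genes (0.619%) were called. At an unadjusted p under 0.05, 2 of the 6, Reg3a and Reg3g, were higher in db/db islets, where 5.04% of all tested genes were called higher and 14.9% in either direction. By DESeq2, 1 of the 6, Reg3g, passed the adjusted threshold, as did 5.54% of all tested genes. The count of 2 became 1 with the library size alone, where Reg3g remained (unadjusted p = 0.0340 by edgeR). It was also 1 with the acinar counts as library size, where Reg1 was lower in db/db islets (unadjusted p = 0.00663 by edgeR). Reg3g then had an unadjusted p of 0.0750 by edgeR. On that scale the median log2 fold change of all tested genes was -0.85, and Reg1 was near it at -0.76. The shares of 5.04 and 14.9% belong to the TMM fit and are not given for the other scalings. Without db/db mouse 3, db/m mouse 1 or db/m mouse 3 the count was also 1, Reg3g.

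Reg3g, the antimicrobial lectin, differed most. Its counts were 292, 438 and 826 in db/db mice 1, 2 and 3 and 262, 45 and 179 in db/m mice 1, 2 and 3. As TMM CPM, it was at 23.4, 26.2 and 55.5 in db/db mice and at 9.62, 2.62 and 9.69 in db/m mice. Each db/db mouse was above each db/m mouse on this scale. This held for 2 of the 6 members and for 8.53% of all tested genes. The means were 35.1 ± 17.8 and 7.31 ± 4.06 TMM CPM (SD, n = 3 each), and the log2 fold change was 2.26 ± 0.51 (SE), or 4.77-fold, with a 95% interval of 1.09 to 3.42. The adjusted p was 0.0911 by edgeR and 0.000595 by DESeq2. It was 2.54e-06 by edgeR when the filter on low counts was left out. That fit called 888 of 23506 genes, against 79 of 12760 with the filter. It gave Reg3g an SE of 0.35, against 0.51 with the filter. Without 1 mouse at a time, the log2 fold change was between 1.77 and 2.54 and the adjusted p by edgeR between 0.0776 and 0.275.

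The separation of Reg3g depended on the scaling between libraries. As plain CPM of the library size, the db/db mice were at 14.2, 26.0 and 51.0 and the db/m mice at 16.8, 2.79 and 9.41, so that db/m mouse 1 lay above db/db mouse 1. These are the libraries with the most extreme TMM factors, 0.605 in db/db mouse 1 and 1.75 in db/m mouse 1, and with the highest and lowest acinar share, 78.2 and 54.2%. Without db/m mouse 1, the TMM log2 fold change of Reg3g was 2.54 (adjusted p = 0.144 by edgeR), and without db/db mouse 1 it was 2.48 (adjusted p = 0.186).

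Reg3a, a close relative of Reg3b, was the other gene whose groups did not overlap on the TMM scale. It was at 41.9, 34.9 and 80.2 TMM CPM in db/db mice and at 25.4, 34.2 and 26.8 in db/m mice. The gap was narrow, since db/db mouse 2 lay just above db/m mouse 2, and db/db mouse 3 was far above the rest. The means were 52.3 ± 24.4 and 28.8 ± 4.71 TMM CPM (SD, n = 3 each), with a log2 fold change of 0.86 ± 0.33 (SE) and an adjusted p of 0.271 by edgeR. Without db/db mouse 3 the log2 fold change was 0.42, with an adjusted p of 0.627 by edgeR. As plain CPM of the library size, the db/db mice were at 25.3, 34.6 and 73.6 and the db/m mice at 44.3, 36.3 and 26.0. The groups of Reg3a thus overlapped on that scale. Its log2 fold change was 0.32 with the library size alone and 0.08 with the acinar counts as library size.

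Reg3b, the pancreatitis-associated protein, was at 110.5, 86.0 and 262.6 TMM CPM in db/db mice and at 65.6, 304.6 and 104.5 in db/m mice. One mouse of each group, db/db mouse 3 and db/m mouse 2, was high, and the groups overlapped over nearly their whole range. The log2 fold change was -0.05 ± 0.59 (SE), with a 95% interval of -1.39 to 1.29 and an adjusted p of 0.979 by edgeR. Without db/m mouse 2 it was 0.88 and without db/db mouse 3 it was -0.68, so that its direction rested on single mice.

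Reg3d was at 377, 306 and 245 TMM CPM in db/db mice and at 117, 282 and 274 in db/m mice. The groups overlapped, and db/m mouse 1 was the lowest. The log2 fold change was 0.46 ± 0.37 (SE; 95% interval -0.38 to 1.30; adjusted p = 0.590 by edgeR), and it was 0.18 without db/m mouse 1.

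Reg1, the most abundant member, was at 6530, 3089 and 5627 TMM CPM in db/db mice and at 2901, 5847 and 6795 in db/m mice. The ranges of the groups were nearly the same, with the lowest mouse in db/m. The log2 fold change was -0.03 ± 0.48 (SE; 95% interval -1.12 to 1.06; adjusted p = 0.986 by edgeR). Reg2, its neighbour in sequence, was at 949, 703 and 2017 TMM CPM in db/db mice and at 878, 2026 and 1029 in db/m mice. The high mice were again db/db mouse 3 and db/m mouse 2, as for Reg3b, and the log2 fold change was -0.10 ± 0.49 (SE; 95% interval -1.21 to 1.01; adjusted p = 0.940 by edgeR). For Reg1, Reg2 and Reg3b, these intervals include changes of more than 1 log2 unit in both directions.

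**Figure D2:**
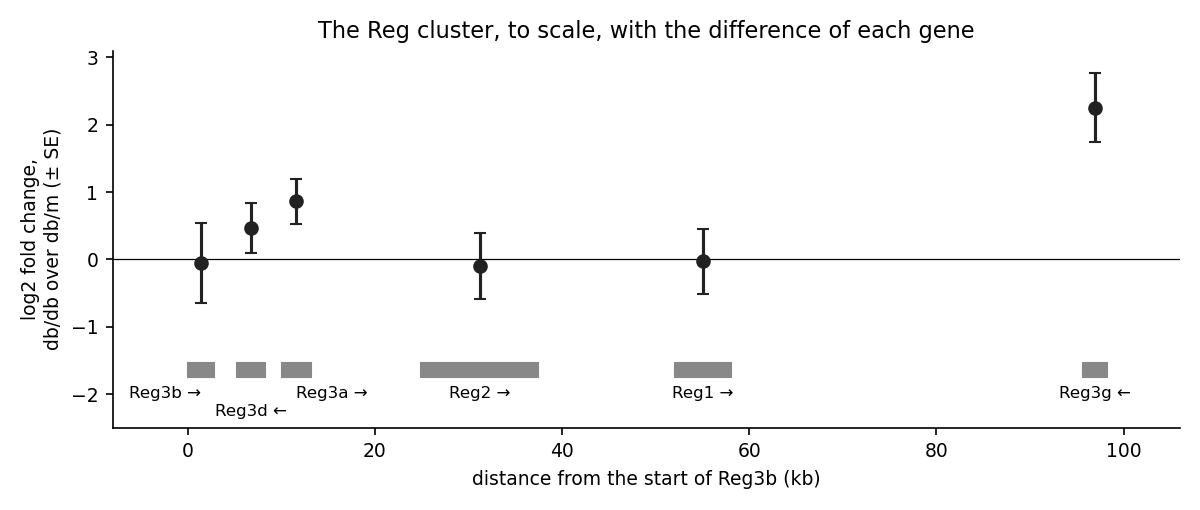
The Reg cluster drawn to scale against the distance from the start of Reg3b in kb (grey boxes, arrows for the strand), with the log2 fold change of each gene, db/db over db/m, above its box (points, bars are the SE). Reg3g, at the far end of the cluster, is at 2.26, and the others lie between -0.10 and 0.86.

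Since the libraries differed in composition, the genes were compared under other scalings. With the library size alone, the median log2 fold change of all tested genes was -0.59, and with the summed acinar counts as library size it was -0.85, against 0.00 with TMM. Relative to these medians, Reg3g was at 2.24 and 2.22, close to the TMM value of 2.26. Reg3a was at 0.91 and 0.93 and Reg3d at 0.56 and 0.62 above the median, and Reg1, Reg2 and Reg3b lay between 0.00 and 0.21 above it. Before the median is subtracted, Reg3d changed sign, to -0.03 with the library size and -0.23 with the acinar counts, and Reg1 was at -0.56 and -0.76.

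**Figure D3:**
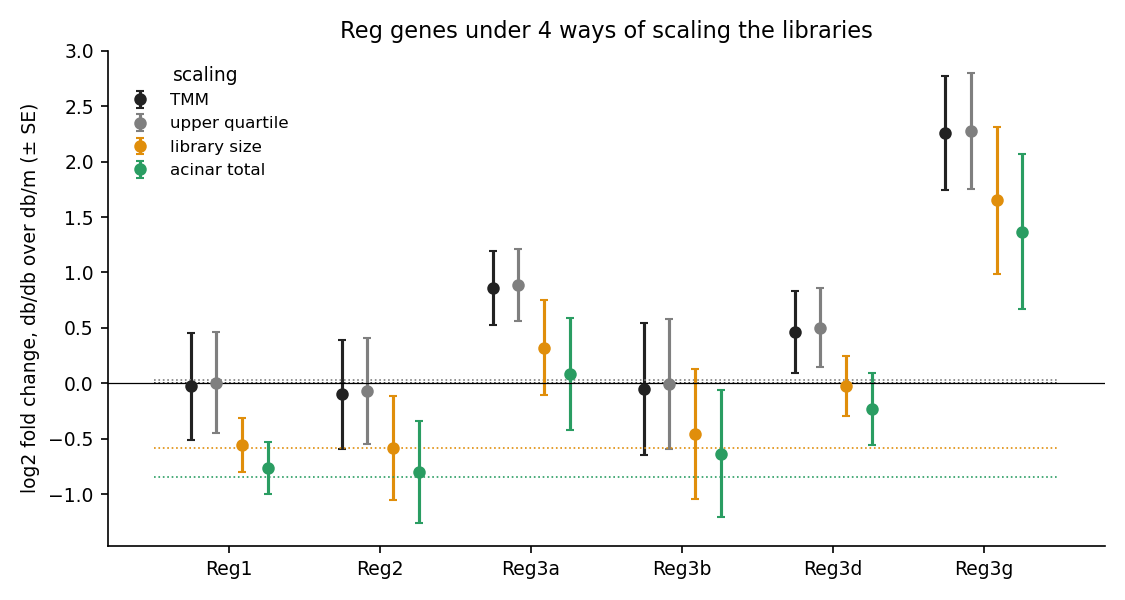
Log2 fold change of each Reg gene, db/db over db/m, under 4 scalings of the libraries (points, bars are the SE). Dotted lines mark the median of all tested genes under each scaling, -0.59 for the library size and -0.85 for the acinar total. Reg3g lies above each line, at 1.37 to 2.28.

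As a share of all counts, which is the library-size scale, the summed Reg genes took 0.485, 0.421 and 0.760% of all counts in db/db mice and 0.696, 0.903 and 0.800% in db/m mice. The groups overlapped through db/db mouse 3 (log2 difference -0.56 ± 0.28 SE, p = 0.2, two-sided exact permutation test, in which 0.1 is the smallest p that 3 mice against 3 can give). The difference depended on the scaling, and was 0.0066 ± 0.48 (SE, exact permutation p = 0.9) on the TMM scale and -0.13 when the genes with at least 1% of a library were left out of the total. Counting error was small beside the spread between mice, with a 95% Clopper-Pearson interval of 0.482 to 0.488% in db/db mouse 1.

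A ratio between Reg genes of the same library does not depend on the scaling between libraries. Among the Reg counts, Reg1 took 67.9 to 82.5% and Reg2 11.8 to 24.3% over the 6 mice, in overlapping ranges. Reg3g took 0.292, 0.617 and 0.670% of the Reg counts in db/db mice and 0.241, 0.0308 and 0.118% in db/m mice. Each db/db mouse was above each db/m mouse, although the 95% Clopper-Pearson intervals of db/db mouse 1 (0.259 to 0.327%) and db/m mouse 1 (0.212 to 0.272%) met, and the log2 difference was 2.37 ± 0.95 (SE, exact permutation p = 0.1). The low value of db/m mouse 2 rested on 45 counts, and the log2 difference was 1.55 without that mouse and 3.04 without db/m mouse 1. For Reg3a, Reg3b, Reg3d, Reg1 and Reg2 the shares of the groups overlapped, with exact permutation p between 0.2 and 0.9.

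Of the 15 ratios between 2 members, 5 did not overlap between the groups, where 21.8% of the ratios between any 2 tested genes with counts in every mouse did not. Of these 5, 4 share Reg3g, whose own levels did not overlap, so they are not separate results. The ratios were chosen after the levels had been seen. Reg3g counts per 1000 Reg3b counts were 212, 304 and 212 in db/db mice and 147, 8.60 and 92.7 in db/m mice. All db/db mice were higher than all db/m mice, by 4.89-fold (ratio of geometric means, exact permutation p = 0.1), but by 2.05-fold without db/m mouse 2, whose Reg3g rested on 45 counts, and by 8.46-fold without db/m mouse 1. Against Reg1 the ratio of Reg3g was 5.21-fold higher, against Reg2 5.75-fold and against Reg3a 3.03-fold, each without overlap and with an exact permutation p of 0.1, the smallest possible. Without db/m mouse 2 these were 3.08-fold, 2.89-fold and 1.79-fold, and without db/m mouse 1 the first 2 were 8.38-fold and 8.41-fold. Against Reg3d it was 3.55-fold higher with overlapping groups (exact permutation p = 0.2), and 1.97-fold without db/m mouse 2 and 5.87-fold without db/m mouse 1. The remaining ratio without overlap was that of Reg3a to Reg2, at 44.1, 49.6 and 39.8 Reg3a counts per 1000 Reg2 counts in db/db mice and 29.0, 16.9 and 26.1 in db/m mice, or 1.90-fold higher.

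**Figure D4:**
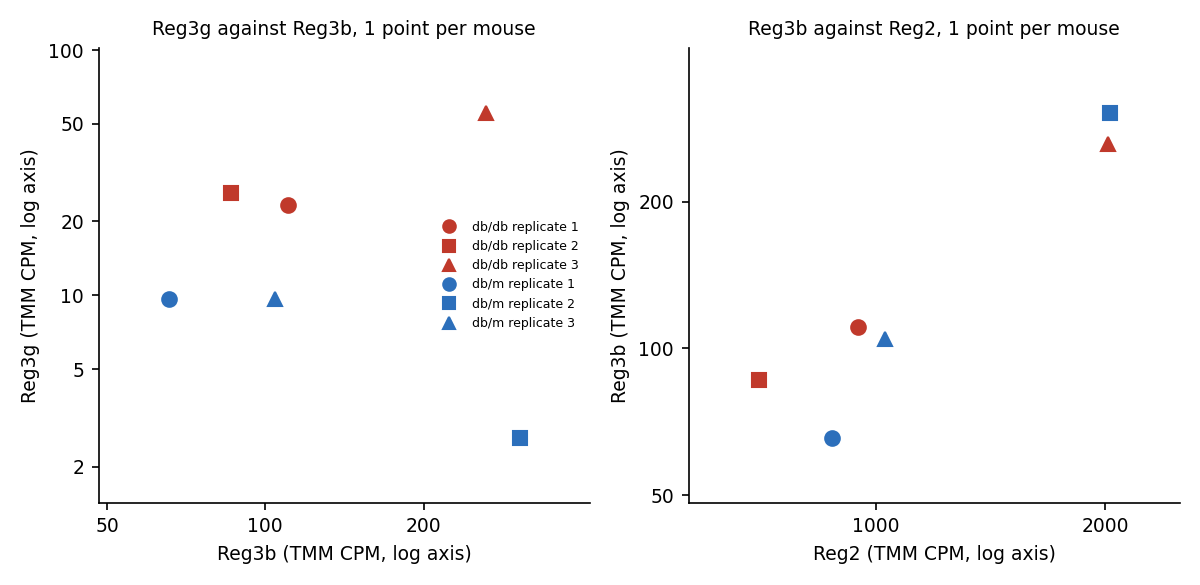
Reg3g against Reg3b (left) and Reg3b against Reg2 (right) in each mouse, in TMM CPM on log axes, with db/db in red and db/m in blue. The 2 mice with the highest Reg2 also have the highest Reg3b, whereas db/m mouse 2 has the highest Reg3b, at 304.6 TMM CPM, and the lowest Reg3g, at 2.62.

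Across the 6 mice, the log2 levels of Reg2 and Reg3b had a Pearson r of 0.95, the highest among the members, and those of Reg3a and Reg3g an r of 0.70. Reg3g had an r of -0.15 with Reg2, -0.10 with Reg3b and -0.07 with Reg1. These are descriptions over 6 libraries that share the TMM scaling, and they include the difference between the groups. Among the other tested genes, taken where the mean reached 1 CPM, the 5 most like Reg3g were Creg1 (r = 0.98), Cox19, Bgn, Znhit1 and Scrn2 (0.97). Of these, Bgn, which encodes the matrix proteoglycan biglycan, had a log2 fold change of 1.93 (adjusted p = 0.0585 by edgeR), and the other 4 had log2 fold changes of 0.33 to 0.61. The genes most like Reg1 were Zc3h15 (r = 0.997), Ggnbp2, Cdc42se1, Zfp260 and Ist1 (0.98). Those most like Reg2 were Slc22a5 (0.98), Lats2, 2810004N23Rik, Twistnb and Brd1 (0.95), and those most like Reg3b were Twistnb (0.98), Adcy6, Pdik1l, 2810004N23Rik and Zfp626 (0.98). Twistnb and 2810004N23Rik stood in the lists of both Reg2 and Reg3b.

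The Reg genes were also set against the acinar enzymes, since acinar RNA made up most of each library. Reg1 had 5.05, 4.25 and 7.20 counts per 1000 acinar counts in db/db mice and 9.33, 9.25 and 9.44 in db/m mice. The db/m mice were nearly equal and each db/db mouse was lower. The means were 5.497 ± 1.53 and 9.34 ± 0.094 (SD, n = 3 each), with a log2 difference of -0.80 ± 0.22 (SE, exact permutation p = 0.1), and between -1.01 and -0.63 without 1 mouse at a time. The coefficient of variation in db/m mice was 1.01% for Reg1, below the 3.92 to 58.1% of the 36 acinar genes. In db/db mice it was 27.7% for Reg1, towards the upper end of the 1.56 to 36.8% of the acinar genes. Of these 36 genes, each taken in the same way, 6 were also lower in all db/db mice and 8 were higher. With the acinar counts as library size, the median log2 fold change of all tested genes was -0.85. A lower level per acinar count was thus typical of the tested genes, and Reg1 was near that median. The share of all tested genes without overlap on this scale is not given.

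The summed Reg genes were at 6.21, 5.84 and 10.6 counts per 1000 acinar counts in db/db mice and at 12.9, 13.4 and 11.4 in db/m mice, again without overlap (log2 difference -0.79 ± 0.28 SE, exact permutation p = 0.1). Most of this sum was Reg1. Reg2 (-0.94 ± 0.66), Reg3b (-0.71 ± 0.79), Reg3d (-0.24 ± 0.18) and Reg3a (-0.02 ± 0.59) had overlapping groups, and so did Reg3g, with a log2 difference of 1.58 ± 1.02 (SE, exact permutation p = 0.2), which was 0.82 without db/m mouse 2 and 2.27 without db/m mouse 1. In the fit across all genes with the acinar counts as library size, Reg1 had a log2 fold change of -0.76 ± 0.23 (SE, adjusted p = 0.138 by edgeR), next to the median of -0.85 for all tested genes on that scale. With TMM and the acinar score (the mean log2 level of the acinar genes) as a covariate, Reg1 was at -0.76 ± 0.27 (SE, unadjusted p = 0.0186, adjusted p = 0.323 by edgeR), against a median of -0.04 for all tested genes, and Reg3b was at -0.55 and Reg2 at -0.35 (adjusted p = 0.852 and 0.883 by edgeR). The score was 11.6 to 12.5 in db/db and 10.3 to 11.7 in db/m mice. It nearly followed the group, so with 6 mice this fit can hardly separate the 2. By TMM, 32 of the 36 acinar genes had a higher log2 fold change than Reg1, Reg2 and Reg3b each had, and 2 of the 36 had a higher one than Reg3g.

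**Figure D5:**
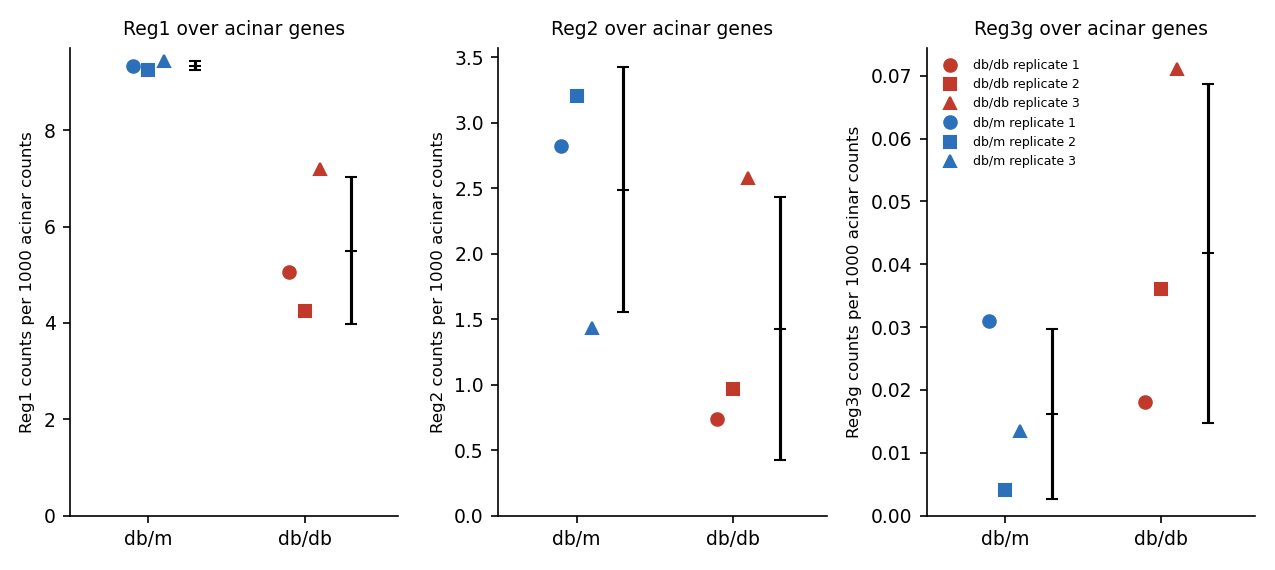
Counts of Reg1, Reg2 and Reg3g per 1000 counts of the 36 acinar genes in each mouse, with the mean and SD of 3 mice in black. The db/m mice lie at 9.25 to 9.44 for Reg1, above the db/db mice at 4.25 to 7.20, whereas the groups overlap for Reg2 and Reg3g. With the acinar counts as library size, the median log2 fold change of all tested genes was -0.85.

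Markers of other cells were compared alongside Reg3g and Reg3a. As CPM of the library size, duct genes summed to 138 to 247 CPM in db/db and 167 to 231 CPM in db/m libraries, stromal genes to 27.2 to 73.3 and 12.7 to 116, leukocyte genes to 16.3 to 65.7 and 4.31 to 81.1, and endothelial genes to 9.12 to 26.4 and 18.9 to 86.9. The groups overlapped for each of these lists, and for the non-β endocrine genes at 239 to 818 and 283 to 3143 CPM and the acinar transcription factors at 563 to 841 and 565 to 732 CPM. The intestinal list was at 4.66 to 10.4 and 8.57 to 41.9 CPM, and 5 of its 11 genes in the table had no count in any mouse. On the TMM scale, the sums of the tested genes were 189 to 248 and 132 to 198 for duct, 44.9 to 78.8 and 13.0 to 66.2 for stromal and 16.4 to 68.8 and 4.44 to 46.6 for leukocyte genes, which overlapped, and 795 to 932 and 403 to 754 for the acinar transcription factors, which did not. The sums of the non-β endocrine (396 to 823 and 291 to 1801), intestinal (6.82 to 10.9 and 8.61 to 23.9) and endothelial genes (15.1 to 27.8 and 17.8 to 49.9) overlapped there too. The median log2 fold changes were 1.15 for stromal, 0.70 for leukocyte, 0.58 for acinar transcription factor and 0.46 for duct genes. They were -0.73 for non-β endocrine, -0.68 for intestinal and -0.47 for endothelial genes. By edgeR, 0 genes of these lists passed the adjusted threshold, and at an unadjusted p under 0.05, 1 of 9 stromal genes (Lum, at 2.41), 1 of 8 leukocyte genes (Lyz2, at 2.16), 1 of 6 acinar transcription factors (Xbp1, at 0.76) and 2 of 13 duct genes (Krt19 at 1.29 and Spp1 at 1.24) were higher. Cd79a (-2.57), Krt7 (-1.34), 1 of 7 endothelial genes (Kdr, at -1.31) and 1 of 2 intestinal genes (Vil1, at -1.52) were lower. Of all tested genes, 5.04% were higher and 9.89% lower at an unadjusted p under 0.05 by edgeR. By DESeq2, Lum passed the adjusted threshold, as did 5.54% of all tested genes. The part of these cells in the Reg levels was not tested.

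The pathway upstream and downstream of the Reg genes was described with a list of 24 receptor and STAT3 signalling genes, of which 16 were tested. By edgeR, 0 of the 16 passed the adjusted threshold, and at an unadjusted p under 0.05, 2 were lower and none was higher in db/db islets, where 9.89% of all tested genes were lower, so that 2 of 16 is near the background. By DESeq2 the adjusted count was also 0. The median log2 fold change of the list was 0.10, against 0.00 for all tested genes. Il6ra, the receptor subunit that binds IL-6, was at 25.8, 27.9 and 30.7 TMM CPM in db/db mice and at 58.0, 61.0 and 29.1 in db/m mice, with a log2 fold change of -0.81 ± 0.30 (SE, adjusted p = 0.252 by edgeR). Socs3, a feedback inhibitor that STAT3 induces, was at 2.65, 5.68 and 4.10 TMM CPM in db/db mice and at 13.6, 11.2 and 5.85 in db/m mice. Every db/m mouse was higher for Socs3, but the gap was narrow, since db/m mouse 3 lay just above db/db mouse 2. The log2 fold change of Socs3 was -1.30 ± 0.39 (SE, adjusted p = 0.166 by edgeR, and 0.0171 without the filter on low counts). Without that filter, 888 of 23506 genes passed the adjusted threshold. Extl3, the receptor gene, had a log2 fold change of 0.13 ± 0.31 (SE, adjusted p = 0.869 by edgeR). The cytokines were scarce. Il22 had no count in any mouse, and Il6 had 0, 0 and 5 counts in db/db mice and 35, 2 and 2 in db/m mice, most of them from db/m mouse 1.

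A list of 22 genes of the acute phase and of pancreatic injury, of which 12 were tested, had a median log2 fold change of 0.30. By edgeR, 0 of the 12 passed the adjusted threshold, and at an unadjusted p under 0.05, 3 were higher and 1 was lower in db/db islets, against 5.04% and 9.89% of all tested genes. By DESeq2, 2 passed the adjusted threshold, Nupr1 and Lcn2, both higher in db/db islets. By the same test, 1.16% of all tested genes were called higher and 5.54% in either direction. Nupr1, a stress-induced chromatin protein of the injured pancreas, was at 1021, 1063 and 1034 TMM CPM in db/db mice and at 126, 341 and 301 in db/m mice. The db/db mice were close to each other and all above the db/m mice, with a log2 fold change of 2.02 ± 0.40 (SE, adjusted p = 0.0654 by edgeR and 3.66e-06 by DESeq2). Lcn2, the iron-binding acute-phase protein lipocalin 2, was at 2.57, 2.93 and 2.69 TMM CPM in db/db mice and at 0.587, 0.874 and 0.758 in db/m mice. It rested on 14 to 49 counts per library and had a log2 fold change of 1.88 ± 0.43 (SE, adjusted p = 0.0902 by edgeR and 0.00354 by DESeq2). Trib3, a pseudokinase of the stress response, had a log2 fold change of 1.34 ± 0.59 (SE, adjusted p = 0.333 by edgeR) with overlapping groups. Its adjusted p was 0.0169 by edgeR without the filter on low counts, where 888 of 23506 genes were called. Cebpd, an acute-phase transcription factor, had a log2 fold change of -1.44 ± 0.64 (SE, adjusted p = 0.333 by edgeR), also with overlapping groups. The serum amyloid genes Saa1, Saa2 and Saa4 had no count in any mouse, and Saa3 had 27, 0 and 6 counts in db/db mice and 0, 6 and 0 in db/m mice.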

How the data were processed

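RNA-seq was performed on islets of 3 db/db and 3 db/m mice. The table deposited by the authors holds unnormalized read counts for each gene symbol, with a column for each mouse. The study's methods name TopHat and the submitters' processing notes HISAT2 2.0.4, both with mm10; the counting program, annotation and strand use are not given in the sources used here. Library totals were 15641797 to 20614531 counts.

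The main test was edgeR 4.0.16 (R 4.3.3) with default low count filter, TMM and quasi-likelihood F-test, adjusted by Benjamini-Hochberg over 12760 genes at a threshold of 0.05. The SE of a log2 fold change was its size divided by the square root of F. DESeq2 1.42.0 was an alternative. The fit was tested on simulated counts. Shares and ratios, with 1 value for each mouse, were tested by exact permutation, two-sided (scipy 1.17.1, Python 3.11.15). These p-values measure the spread between 3 libraries a group. Replicates of a group differed beyond counting noise (chi-square divided by its degrees of freedom, 26.5 to 147). Clopper-Pearson intervals (95%) and the floor of 3 counts cover counting error only. Correlations used log2(TMM CPM + 1). Of 38 acinar genes, 36 were found by symbol. Positions and exon lengths are from GENCODE and promoters from RefSeq, both on GRCm38, and the 7 promoter windows equalled the genome.

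Named genes were the members, the genes of the receptor and STAT3 and the injury lists at an unadjusted p under 0.05, and the 5 genes most like Reg1, Reg2, Reg3b and Reg3g. Extl3, Il22, Il6, the serum amyloid genes and markers of other cells were named outside this rule, after their values were seen. Members and lists were chosen with earlier results of these data known. Alternatives were other scalings, filters, a covariate, a replicate block and leaving out each mouse; ratios between members differences from the median of all genes and marker sums on the TMM scale were added after seeing the data. Counts of circRNAs were not analysed here.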

Additional observations from a re-analysis of the deposited data

How the results depend on the processing

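The number of genes called over the whole table (79) moved to 707 with DESeq2, 888 without the filter on low counts, 21 with the library size alone, 52 with upper-quartile factors, 50 with the acinar total as library size and 10 to 333 without 1 mouse at a time. Reg3g passed the adjusted threshold with DESeq2 (log2 fold change 2.27) and without the filter (2.25), and its log2 fold change stayed above 0 under 15 of 15 alternatives (1.37 to 2.55), as did that of Reg3a (0.08 to 1.09). Of the genes at log2 fold changes near 0, Reg1 changed sign with upper-quartile factors (0.0039) and ranged from -0.29 to 0.23 without 1 mouse, Reg2 from -0.66 to 0.39 and Reg3b from -0.68 to 0.88. Reg3d changed sign with the library size (-0.026), the acinar total (-0.23) and the acinar score as a covariate (-0.13); the cause was not tested. Genes past the adjusted threshold became 2 in the injury list with DESeq2 (Nupr1 and Lcn2) and 2 without the filter (Nupr1 and Trib3), and 1 in the STAT3 list without the filter (Socs3). The log2 difference of the summed Reg share became 0.0066 on TMM-scaled CPM. Without 1 mouse at a time, the log2 differences in the shares among Reg counts ranged from -0.082 to 0.062 for Reg1, -0.44 to 0.10 for Reg2 and -0.23 to 0.52 for Reg3b, and that of Reg3a per 1000 acinar counts from -0.48 to 0.36, with 0.12 over acinar transcription factors. Among the ratios between members, those of Reg2 to Reg1, Reg3b to Reg1, Reg3b to Reg2 and Reg3d to Reg3a each changed direction when some single mouse was left out. The other fold changes, shares and ratios kept their direction and their side of the threshold. The counts at an unadjusted p ranged from 0 to 4 in the STAT3 list and from 2 to 5 in the injury list. In a design of 3 against 3, exact tests cannot pass 0.05.

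With the replicate number as a block, 16 genes were called, Reg3b changed sign (0.15), Reg3g was the only member at an unadjusted p under 0.05 and was at 2.36 (adjusted p = 0.139 by edgeR). The deviations of mice with the same number had correlations of -0.53, -0.20 and -0.32, and no mouse correlated best with its own number. These correlations showed no sign of pairing by number. With so few mice, in libraries that differed in acinar share, they cannot decide whether the numbers pair the mice.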

Other observations

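Other secreted lectins were expressed beside the Reg genes. Of a list of 14 such genes, 7 were tested and each of the 7 had a log2 fold change above 0, against 6371 of all 12760 tested genes. The median was 0.62, against 0.00 for all tested genes. By edgeR, 0 of the 7 passed the adjusted threshold. At an unadjusted p under 0.05, 1, Clec11a, was higher, as were 5.04% of all tested genes. By DESeq2, 1 passed the adjusted threshold, again Clec11a, as did 5.54% of all tested genes. Clec11a and Zg16 are named after their values were seen. Clec11a, a secreted C-type lectin that acts as a growth factor of bone and blood cells, was at 2.01, 6.46 and 2.22 TMM CPM in db/db mice and at 0.844, 0.408 and 0.65 in db/m mice. All db/db mice were higher, on 7 to 108 counts per library (log2 fold change 2.47 ± 0.59 SE, adjusted p = 0.09997 by edgeR). Zg16, a lectin of the zymogen granule, was the most abundant of the list, at 11905 to 21748 TMM CPM in db/db mice and 4472 to 12398 in db/m mice, with a log2 fold change of 0.72 ± 0.55 (SE, adjusted p = 0.567 by edgeR). It is an acinar gene and is also counted in the acinar list.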
